A study of Homo sapiens with 18 samples.

Results

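The genes described here encode the receptors and ligands of the PDGF and KIT signalling systems and a pair of VEGF ligands. They were chosen by symbol in the gene table, as PDGFRA, PDGFRB, PDGFA, PDGFB, PDGFC, PDGFD, KIT, KITLG, VEGFA and VEGFC, and all 10 were found among 58870 gene identifiers. No receptor for VEGF was chosen by this rule. RNA-seq was performed on 3 established human melanoma cell lines, WM164, SKMEL28 and A375, each of which was transduced to overexpress either MAFG, a small MAF family transcription factor, or GFP as control. According to the methods, the lentiviral vectors drive tagged MAFG or GFP from the EF1α promoter and carry a blasticidin resistance gene, so that the control cells were transduced and may have been selected in the same way. There were 3 libraries for each of the 6 conditions and 18 libraries in all. The sources used here do not say whether the 3 libraries of a condition came from separate cultures, so that p-values measure the spread between these libraries, which may be technical. The total count per library ranged from 20122172 to 39025042 with a median of 31061375.

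PDGF ligands are secreted as dimers that bring pairs of receptor chains together and so switch on the tyrosine kinases inside the cell. PDGFA and PDGFC bind mainly PDGFRα, PDGFB binds both receptor chains and PDGFD binds mainly PDGFRβ. KIT belongs to the same class of receptors, is bound by stem cell factor, the product of KITLG, and is required for the survival and migration of melanocytes. VEGFA acts mainly on blood vessels through FLT1 and KDR, and VEGFC acts mainly on lymphatic vessels through FLT4. Receptor tyrosine kinases including PDGFRβ are known from studies of melanoma cells that are less differentiated or resistant to BRAF inhibitors.

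The promoters of PDGFRA, PDGFRB and VEGFC, whose levels in WM164 cells are described below, are shown first, since MAFG is known to bind DNA at MAF recognition elements. Each sequence is the 250 bases before a start site of the RefSeq table (build GRCh38.p14), 5′ to 3′ on the strand of the gene, with matches to 4 motifs on either strand in capitals. TGCTGA is the core of one arm of a MAF recognition element, TGANNNNGC is the core of the antioxidant response element, and the E-boxes CACGTG and, with one letter changed, CATGTG are of the kind MITF binds. The windows are chr4:54229043-54229292 on the plus strand for PDGFRA, chr5:150155846-150156095 on the minus strand for PDGFRB and chr4:176792923-176793172 on the minus strand for VEGFC.
PDGFRA: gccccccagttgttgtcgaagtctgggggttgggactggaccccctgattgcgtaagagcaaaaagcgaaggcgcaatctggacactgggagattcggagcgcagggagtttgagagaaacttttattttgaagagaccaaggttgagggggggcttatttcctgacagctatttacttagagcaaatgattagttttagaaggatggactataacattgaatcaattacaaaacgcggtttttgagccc
PDGFRB: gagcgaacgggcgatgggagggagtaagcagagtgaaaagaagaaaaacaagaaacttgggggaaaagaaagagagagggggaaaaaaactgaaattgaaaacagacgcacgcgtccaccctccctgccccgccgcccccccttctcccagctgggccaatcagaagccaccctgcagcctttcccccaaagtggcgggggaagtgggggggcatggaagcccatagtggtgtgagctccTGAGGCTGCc
VEGFC: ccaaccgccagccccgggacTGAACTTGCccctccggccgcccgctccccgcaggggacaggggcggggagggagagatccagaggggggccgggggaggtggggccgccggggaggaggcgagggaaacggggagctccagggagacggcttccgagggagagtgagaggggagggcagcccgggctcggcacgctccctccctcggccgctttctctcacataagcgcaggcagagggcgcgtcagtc
The window of PDGFRA, from the first of 2 start sites in the table, held none of the 4 motifs. The window of PDGFRB held TGANNNNGC beginning 10 bases before the start site, and that of VEGFC held it 230 bases before. Among 35116 promoter windows of the same length in the table, 35.2% held TGANNNNGC, 14% held TGCTGA, 6.34% held CACGTG and 9.42% held CATGTG. The table held windows for 7 of the 10 genes, and in these TGCTGA occurred once, in the KITLG window 11 bases before its start site. It lay there on the strand opposite to that of the gene. PDGFB, PDGFC and VEGFA had no entry. The last bases of the PDGFRA and PDGFRB windows lie inside the gene as annotated by GENCODE.

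The targeted gene followed the labels, with MAFG higher in each of the 3 MAFG libraries than in each GFP library of the same line. Its log2 fold change was 1.04 (SE 0.09, adjusted p = 6.37e-08) in WM164, 0.64 (SE 0.10, adjusted p = 1.28e-04) in SKMEL28 and 0.80 (SE 0.17, adjusted p = 0.0655) in A375 cells, by the quasi-likelihood test of edgeR, adjusted after Benjamini and Hochberg, so that the A375 value did not pass in this fit. It passed with DESeq2 (adjusted p = 7.68e-04), without the count filter (adjusted p = 2.28e-06), in a model of all 18 libraries (adjusted p = 0.00134), on each TPM scale tried and without A375 MAFG replicate 1 or 3. The deposited TPM of MAFG differed by more than the counts did, from 2.89 ± 0.543 with GFP to 24.5 ± 3.34 with MAFG in WM164 (mean ± SD, n = 3), 3.96 ± 0.641 to 17.0 ± 2.66 in SKMEL28 and 4.22 ± 0.291 to 25.2 ± 2.88 in A375 cells. CPM below are counts scaled to library size, after TMM scaling over all 18 libraries. Of the melanocytic markers MITF, PMEL, MLANA, TYR, DCT and SOX10, all 6 were over 3 counts in WM164 and SKMEL28 cells, while MLANA, TYR and DCT were at 3 counts or fewer in every A375 library. The summed melanocytic level was 4483 to 4826 CPM in WM164 GFP and 2416 to 2559 CPM in WM164 MAFG libraries, and 5 of 6 markers fell in that line. In SKMEL28 the sum was 4505 to 4764 CPM with GFP and 3745 to 3989 CPM with MAFG, and 3 of 6 markers fell. In A375 the sum was 35.3 to 41.5 CPM with GFP and 119 to 172 CPM with MAFG, where SOX10 rose with a log2 fold change of 3.68 (SE 0.21, adjusted p = 2.12e-05). Markers of other cell types that could carry PDGF receptors were also summed. The 6 endothelial markers summed to 0.345 to 1.41 CPM over all libraries, the 6 fibroblast and pericyte markers to 6.58 to 25.4 CPM, the 5 haematopoietic and mast cell markers to at most 1.05 CPM and the 3 keratinocyte markers to at most 0.825 CPM. In WM164 the fibroblast and pericyte sum was 22.3 to 23.2 CPM with GFP and 13.7 to 15.9 CPM with MAFG. In these MAFG libraries PDGFRA was at 14.6 to 15.1 CPM and PDGFRB at 1.85 to 2.10 CPM. The endothelial sum there was 0.700 to 1.29 CPM, with FLT1 at 0.649 to 1.11 CPM and KDR at 0.455 to 0.896 CPM. These sums were not small beside the receptors. CLDN5, PTPRC, CD3E and TPSAB1, markers of endothelial, blood, T and mast cells, were at 3 counts or fewer in every library. The other markers of these lists were over 3 counts in at least 1 library. Among them were 1 to 4 of the 6 endothelial markers in each condition, CD14 in both WM164 conditions and CPA3 in A375 GFP cells. Among the fibroblast and pericyte markers 1 rose and 1 fell of 4 tested in WM164, 1 rose of 2 tested in SKMEL28 and 0 of 4 passed in A375 in edgeR, where 1 had an unadjusted p under 0.05 and 1 passed with DESeq2. Of the endothelial, haematopoietic and keratinocyte markers that could be tested, 0 passed in any line by edgeR or DESeq2, none had an unadjusted p under 0.05, and their part in the results below was not tested.

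The lines differed in which ligands and receptors they expressed without MAFG. In TPM, which the authors scaled for transcript length so that genes can be compared, VEGFA was the most abundant of the 10 genes in WM164 GFP cells (15.0 ± 1.74 TPM, mean ± SD, n = 3) and SKMEL28 GFP cells (20.2 ± 1.10). In A375 GFP cells PDGFA (17.6 ± 3.16) and VEGFA (14.7 ± 2.71) led, and their ranges over libraries overlapped. The next genes were PDGFA in WM164 (3.77 ± 1.07 TPM), KITLG in SKMEL28 (2.41 ± 0.775) and VEGFC in A375 cells (5.16 ± 1.15). Of the receptors, WM164 GFP cells had mainly PDGFRA (0.610 ± 0.202 TPM) and little PDGFRB (0.0433 ± 0.0404). A375 GFP cells had the opposite, with PDGFRB at 1.98 ± 0.759 TPM and PDGFRA at 0.0233 ± 0.0153. SKMEL28 GFP cells had PDGFRA at 0.263 ± 0.253 TPM, with 1 library at 0.55 and the others at 0.07 and 0.17, and PDGFRB at 0.0100 ± 0.0100. The library at 0.55 TPM, replicate 2, had the fewest PDGFRA counts, 5 against 10 and 18, so that TPM and counts disagree here.

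**Figure D1:**
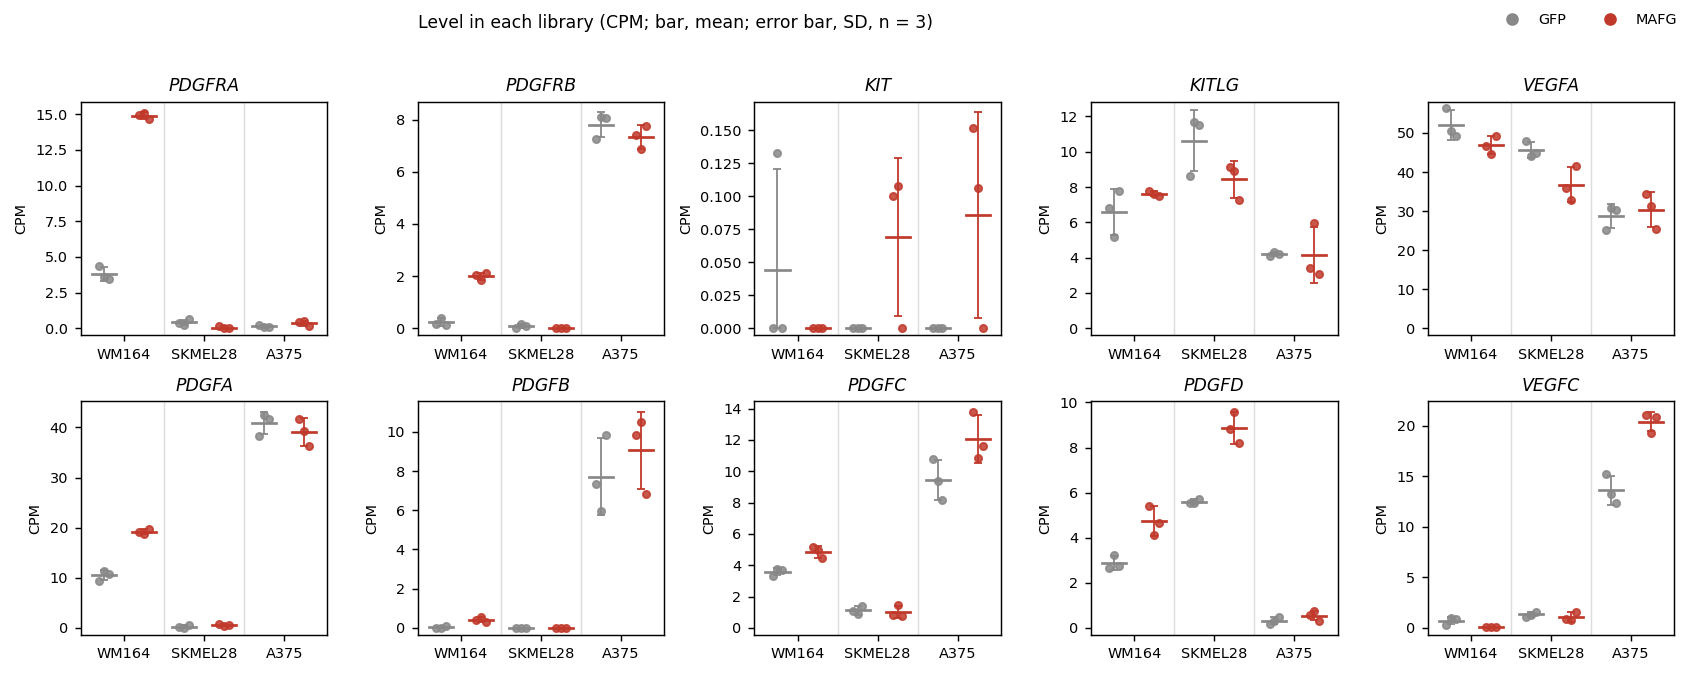
Level of each gene in CPM (vertical axis, linear, a scale of its own per gene) in the 3 libraries of each condition, GFP in grey and MAFG in red, with the mean as a bar and the SD as an error bar. In WM164, PDGFRA lies between 14.6 and 15.1 CPM with MAFG and between 3.44 and 4.36 CPM with GFP, and KIT stays at or under 0.152 CPM in all libraries.

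To compare each gene between lines, the GFP conditions were contrasted in 1 edgeR model of the 18 libraries, in which 9 of the 10 genes could be tested and KIT could not. All 9 passed the adjusted p of 0.05 between A375 and WM164 cells in the counts. On log2(TPM + 1) with limma, VEGFA (-0.04, adjusted p = 0.825) and KITLG (-0.08, adjusted p = 0.665) did not pass, and KITLG did not pass without WM164 GFP replicate 3 (adjusted p = 0.0640). Beyond 2-fold, 7 of the 9 differed, 5 higher and 2 lower in A375, where 46.7% of all tested genes differed by that rule. The share of all genes at the adjusted p alone is at least as large, and is not given here. PDGFRB, the receptor chain for PDGFB and PDGFD, was at 7.25, 8.10 and 8.06 CPM in A375 and 0.178, 0.398 and 0.119 CPM in WM164 GFP libraries, a log2 difference of 5.01 (SE 0.37, adjusted p = 5.41e-10). PDGFRA was lower in A375, at 0.235, 0.0815 and 0.0558 against 4.36, 3.62 and 3.44 CPM, a log2 difference of -4.88 (SE 0.49, adjusted p = 1.62e-08). Its counts in A375 may be affected by a read-through gene described below, and the difference was -2.54 when the counts of both were added. The libraries of the lines did not overlap for either receptor.

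The ligands also differed between A375 and WM164 cells. PDGFA, PDGFB, PDGFC and VEGFC were higher in A375. VEGFC was at 15.2, 13.3 and 12.4 CPM in A375 and 0.321, 0.962 and 0.909 CPM in WM164 GFP libraries, a log2 difference of 4.21 (SE 0.27, adjusted p = 1.36e-11). PDGFB had 281, 219 and 352 counts in A375 and 0, 0 and 2 in WM164 GFP libraries. PDGFD, the ligand of PDGFRβ, was lower in A375, at 0.156, 0.326 and 0.502 against 2.68, 3.25 and 2.77 CPM, a log2 difference of -3.14 (SE 0.32, adjusted p = 1.53e-08). The line with most PDGFRB thus had least PDGFD, while PDGFB, the other ligand of that chain, was measured above 3 counts in GFP libraries of A375 only.

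Between A375 and SKMEL28 GFP cells all 9 genes passed and 8 differed by over 2-fold, 5 higher and 3 lower in A375, where 43.8% of all tested genes did. Here and between WM164 and SKMEL28, the share of all genes at the adjusted p alone is at least that beyond 2-fold, and is not given. PDGFA, the main ligand of PDGFRα in A375, was at 38.3, 42.5 and 41.7 CPM there and at 0.233, 0.0492 and 0.518 CPM in SKMEL28 (log2 difference 7.13, SE 0.25, adjusted p = 4.48e-16). KITLG was higher in SKMEL28 than in A375, with 8.63, 11.7 and 11.5 against 4.07, 4.29 and 4.18 CPM (log2 difference -1.34, SE 0.21, adjusted p = 1.20e-05). PDGFRA was lower in A375 than in SKMEL28 (log2 difference -1.68, SE 0.60, adjusted p = 0.0185) at 9, 3 and 2 against 10, 5 and 18 counts, which overlap, its call was lost without A375 GFP replicate 2 or 3 or SKMEL28 GFP replicate 3 (adjusted p = 0.0638, 0.0721 and 0.140), and with the read-through counts added the difference was 0.66 (adjusted p = 0.280). Between WM164 and SKMEL28, 7 of 9 passed and 4 differed by over 2-fold, all higher in WM164, with 28.7% of all genes beyond that limit. These were PDGFRA (log2 difference 3.20, SE 0.43, adjusted p = 2.20e-06), PDGFRB (log2 difference 1.83, SE 0.66, adjusted p = 0.0229), PDGFA (log2 difference 5.17, SE 0.26, adjusted p = 7.63e-13) and PDGFC (log2 difference 1.66, SE 0.23, adjusted p = 2.79e-06). The PDGFRB difference rests on 5, 12 and 3 counts in WM164 and 0, 3 and 2 counts in SKMEL28, groups that overlap, and its call was lost when WM164 GFP replicate 2 or SKMEL28 GFP replicate 1 or 3 was left out (adjusted p = 0.192, 0.112 and 0.0551). PDGFC and PDGFRB did not pass on log2(TPM + 1), with differences of 0.09 (adjusted p = 0.705) and 0.05 (adjusted p = 0.807), nor with a pseudocount of 0.1. VEGFA did not pass between WM164 and SKMEL28 (log2 difference 0.19, SE 0.11, adjusted p = 0.153), but it passed as higher in WM164 in a fit of the 6 GFP libraries alone (0.20, adjusted p = 0.0285) and as lower in WM164 on log2(TPM + 1) (-0.41, adjusted p = 0.0233), so that no direction is given for it.

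Both PDGF receptor genes rose in WM164 cells with MAFG. PDGFRA (ENSG00000134853.12, chromosome 4 from 54229280 to 54298245, plus strand of GRCh38) had 122, 109 and 87 counts with GFP and 427, 409 and 474 with MAFG. In CPM these were 4.36, 3.62 and 3.44 against 14.9, 15.1 and 14.6, so that the lowest MAFG library stood well above the highest GFP library. The log2 fold change was 1.97 (SE 0.13, adjusted p = 1.53e-09), and it lay between 1.90 and 2.07 with any 1 of the 6 libraries left out. PDGFRB (ENSG00000113721.14, chromosome 5 from 150113839 to 150155872, minus strand) had 5, 12 and 3 counts with GFP and 58, 50 and 68 with MAFG. Its level went from 0.232 ± 0.147 to 1.99 ± 0.131 CPM (SD, n = 3), a log2 fold change of 3.05 (SE 0.46, adjusted p = 5.65e-05). The groups did not overlap for this gene either, but the GFP libraries held few counts and the fold change ranged from 2.75 to 3.69 with 1 library left out. On log2(TPM + 1) with limma without a filter, PDGFRB did not pass (0.43, adjusted p = 0.0516). With MAFG, PDGFRB in WM164 still lay below its level in A375 GFP cells, 7.80 ± 0.481 CPM. The melanocytic markers fell in the same libraries, as given above, and their part in the result was not tested. In these bulk libraries, more cells with a gene and more of its RNA per cell cannot be told apart.

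Of the 7 members tested in WM164, 4 rose, 0 fell and 3 did not pass, where 16.2% of all 15919 tested genes rose and 15.6% fell. PDGFRA and PDGFRB were the 2 members beyond 2-fold, against 6.94% of all genes. The median log2 fold change of the 7 was 0.71, and that of all tested genes was 0.00. These values depend on the count filter. PDGFRB reached it through its MAFG libraries, since its GFP libraries held 5, 12 and 3 counts. PDGFB, higher with MAFG, and VEGFC, lower with MAFG, lay under the filter and are described below. Among the ligands, PDGFA rose from 9.39, 11.4 and 10.8 to 19.1, 18.8 and 19.8 CPM, with no overlap and a log2 fold change of 0.87 (SE 0.10, adjusted p = 2.63e-06). PDGFD rose from 2.68, 3.25 and 2.77 to 5.42, 4.14 and 4.67 CPM, a log2 change of 0.71 (SE 0.20, adjusted p = 0.00969) whose groups also did not overlap. Leaving out WM164 MAFG replicate 1 took the adjusted p of PDGFD to 0.0598, and the model of all 18 libraries took it to 0.0632. With limma on log2(TPM + 1) without a filter, PDGFA (0.90, adjusted p = 0.0551) and PDGFD (0.32, adjusted p = 0.0584) did not pass. PDGFC was 3.32, 3.75 and 3.71 CPM with GFP and 5.18, 4.95 and 4.45 CPM with MAFG and did not pass (log2 fold change 0.43, SE 0.18, adjusted p = 0.0720), although its groups did not overlap. KITLG (0.21, SE 0.15, adjusted p = 0.319) and VEGFA (-0.15, SE 0.07, adjusted p = 0.120) did not pass either, by their log2 fold changes in the same edgeR test.

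The WM164 libraries also held a pair of ligands that moved in opposite directions at counts too low for the filter. PDGFB had 0, 0 and 2 counts with GFP and 12, 15 and 10 with MAFG, a ratio of summed counts, scaled to library size, of 17.5 (95% interval 4.53 to 150.3), where the interval covers counting error only. VEGFC had 9, 29 and 23 counts with GFP and 2 in each MAFG library, and GFP exceeded MAFG by a ratio of 10.7 (95% interval 4.65 to 30.3). VEGFC had 9 counts in WM164 GFP replicate 1 and 23 to 29 in the others, and every MAFG library was below all of them. In the model of all 18 libraries, in which these genes could be tested, PDGFB rose with a log2 fold change of 3.93 (SE 0.76, adjusted p = 0.00144) and VEGFC fell by 3.35 (SE 0.52, adjusted p = 8.44e-05) on the log2 scale, by edgeR with Benjamini-Hochberg adjustment. These fitted sizes depend on the prior count that edgeR adds, and 16.1% of all genes passed in this contrast of that model. With MAFG, WM164 cells therefore had both chains of the PDGF receptors and 4 PDGF ligands above 3 counts in every library, and VEGFC at 3 counts or fewer.

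PDGFRA shares 1533 exon bases on the same strand with a read-through gene, AC058822.1 (ENSG00000282278), whose annotated exons run from FIP1L1 into PDGFRA. The read-through gene had 40, 32 and 0 counts in WM164 MAFG libraries and 0 in the GFP libraries of that line. It had 0, 39 and 19 counts in A375 GFP libraries, where PDGFRA itself had 9, 3 and 2, and 0 in A375 MAFG and all SKMEL28 libraries. How reads of the shared exons were assigned, or whether they were left out, is not given in the sources used here. With the counts of both added, an alternative chosen after the data had been seen, the WM164 response of PDGFRA was 2.05 on the log2 scale (SE 0.13, adjusted p = 1.01e-09) in edgeR. The A375 response changed sign, from 1.43 (SE 0.59, adjusted p = 0.300) for PDGFRA alone in the 18-library model to -0.91 for the sum in the fit of the line (adjusted p = 0.997).

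In SKMEL28 cells the receptor genes did not rise. PDGFRA had 10, 5 and 18 counts with GFP and 4, 0 and 0 with MAFG, so that GFP exceeded MAFG by a ratio of 8.79 (95% interval 3.13 to 34.1) of summed counts scaled to library size. The gene was under the filter in the fit of this line, and in the 18-library model it fell by 3.02 (SE 0.78, adjusted p = 0.0100) on the log2 scale, where 16.2% of all genes passed. PDGFRB had 0, 3 and 2 counts with GFP and 0 in all MAFG libraries, and both conditions were at or under the limit of 3 counts per library, so that no fold is given. Of the 6 members tested, 1 rose and 1 fell, where 14.6% of all 15523 tested genes rose and 15.3% fell. In the 6-library fit 0 of these 6 were called beyond 2-fold by edgeR, by DESeq2 or at an unadjusted p under 0.05, and 4.74% of all genes were called in edgeR. PDGFRA, not among the 6, was called in the 18-library model and without the count filter. The median log2 fold change of the 6 was -0.23, against -0.01 over all tested genes.

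The member that rose in SKMEL28 was PDGFD, from 5.53, 5.56 and 5.73 to 8.84, 9.58 and 8.18 CPM, with no overlap and a log2 fold change of 0.66 (SE 0.14, adjusted p = 0.00236). The difference between the PDGFD responses of WM164 and SKMEL28 was 0.05 (SE 0.35) on the log2 scale and did not pass. The member that fell was VEGFA, from 47.9, 44 and 44.9 to 35.9, 32.9 and 41.5 CPM, with a log2 fold change of -0.31 (SE 0.08, adjusted p = 0.0109). Its groups did not overlap, but VEGFA did not pass without SKMEL28 GFP replicate 1 (adjusted p = 0.0612), without MAFG replicate 2 (adjusted p = 0.0699) or in the 18-library model (adjusted p = 0.0642). In that model PDGFD did not pass either (adjusted p = 0.0714), nor on the log2(TPM + 1) scale (adjusted p = 0.0653). PDGFA had 7, 1 and 15 counts with GFP and 25, 11 and 17 with MAFG, and at these counts a log2 fold change of 1.15 (SE 0.66, adjusted p = 0.218) did not pass. PDGFC, KITLG and VEGFC had log2 fold changes of -0.15, -0.33 and -0.31 and did not pass, with adjusted p from 0.123 to 0.826.

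In A375 cells 0 of the 8 tested members passed in edgeR, 2 had an unadjusted p under 0.05 and 1 passed with DESeq2. Of all 15779 tested genes, 0.78% rose, 0.0634% fell and 0.665% passed with over 2-fold. The median log2 fold change of the 8 was 0.15, against 0.00 over all tested genes. Over all genes, the standard error of the log2 fold change had a median of 0.176 in this line, against 0.110 in WM164 and 0.119 in SKMEL28. PDGFRB, which A375 cells already expressed, was 7.25, 8.10 and 8.06 CPM with GFP and 7.43, 6.86 and 7.77 CPM with MAFG, and these groups overlapped. The log2 fold change was -0.09 (SE 0.15, adjusted p = 0.997). The TPM of the same gene was 2.36, 2.48 and 1.11 with GFP and 1.11, 1.12 and 1.04 with MAFG, so that GFP replicates 1 and 2 stood apart on that scale and not in the counts. VEGFC had the smallest adjusted p of the members, with 15.2, 13.3 and 12.4 CPM against 21.1, 19.3 and 20.9 CPM, no overlap and a log2 fold change of 0.58 (SE 0.13, adjusted p = 0.0908). It passed with DESeq2 (adjusted p = 0.0120), without the count filter (adjusted p = 0.0279) and without A375 MAFG replicate 1 (adjusted p = 0.0346). PDGFD was low, with 6, 12 and 18 counts against 22, 28 and 14, and its log2 fold change of 0.71 (SE 0.69, adjusted p = 0.997) came from groups that overlapped. PDGFA, PDGFB, PDGFC, KITLG and VEGFA had log2 fold changes from -0.07 to 0.35.

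**Figure D2:**
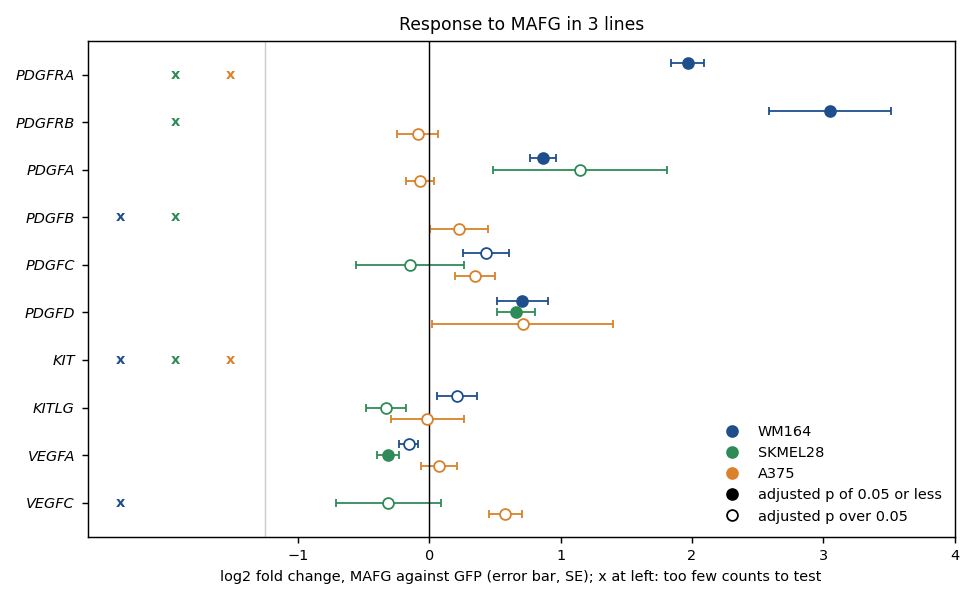
Log2 fold change of MAFG against GFP (horizontal axis) with its standard error as a bar, for each gene that could be tested, in WM164 (blue), SKMEL28 (green) and A375 cells (orange); filled points passed at an adjusted p of 0.05, and a cross at left marks a gene with too few counts in that line. PDGFRA at 1.97 and PDGFRB at 3.05 in WM164 cells are the points beyond 1 that are filled.

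KIT, the receptor of stem cell factor, was at the limit of detection in all conditions. It had 0 counts in 13 of 18 libraries and over 3 counts in 3, with 20 counts in all. WM164 GFP libraries had 0, 4 and 0 counts and WM164 MAFG libraries 0. SKMEL28 MAFG libraries had 3, 3 and 0 counts and A375 MAFG libraries 6, 4 and 0, while the GFP libraries of both lines had 0. By counting error alone the 95% interval of the ratio of MAFG to GFP began at 2.07 in A375 and 1.11 in SKMEL28, with no upper end, and ran from 0 to 1.44 in WM164. These intervals leave out the spread between libraries, MAFG replicate 3 had 0 counts in both A375 and SKMEL28, and 3 counts correspond to 0.0698 to 0.148 CPM per library. KITLG was above 100 counts in every library, so that these cells expressed the ligand with little or no message of its receptor. Its levels were 7.77, 7.58 and 7.51 CPM in WM164, 9.14, 8.93 and 7.24 in SKMEL28 and 3.41, 5.99 and 3.05 in A375 cells with MAFG. MITF, a factor known to act on KIT, had 998 to 1111 counts in A375, 11498 to 13283 in WM164 and 12989 to 19704 in SKMEL28 GFP libraries. With MAFG it had 879 to 1219, 7617 to 8980 and 15431 to 16565 counts in the same order. These counts are not scaled to library size. In CPM, MITF was at 639 to 656 with GFP and 553 to 579 with MAFG in SKMEL28. It was at 422 to 454 and 277 to 282 CPM in WM164, and at 27.1 to 29.7 and 20.4 to 32.3 CPM in A375. The part of MITF in the level of KIT was not tested.

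The makeup of the PDGF ligand pool was compared as the share of each ligand in the summed TPM of the 4 PDGF genes. PDGFA made up 77.2% ± 4.02 of the pool in WM164 GFP cells (mean ± SD, n = 3) and 78.9% ± 4.22 with MAFG. In SKMEL28 cells PDGFD was the main ligand, at 63.5% ± 17.1 with GFP and 69.7% ± 11.4 with MAFG. In A375 cells PDGFA was at 72.2% ± 4.77 and 67.9% ± 1.05, PDGFC at 16.0% ± 3.10 and 18.1% ± 1.02, and PDGFB at 11.6% ± 4.09 and 13.5% ± 1.76, with GFP and MAFG respectively. PDGFA held 9.30% ± 6.73 in SKMEL28 GFP and 10.4% ± 6.51 in SKMEL28 MAFG cells, so that its share in each of these libraries lay below those of both other lines. The sum of the 4 ligands was 4.85 ± 1.15 TPM in WM164 GFP and 9.88 ± 0.650 TPM in WM164 MAFG cells, with libraries that did not overlap. It was 1.97 ± 0.419 and 2.45 ± 0.122 TPM in SKMEL28 and 24.3 ± 3.31 and 20.5 ± 3.02 TPM in A375 cells. With 3 libraries against 3, an exact permutation test of 1 such sum cannot go below p = 0.1, so that the sums are given without a test.

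**Figure D3:**
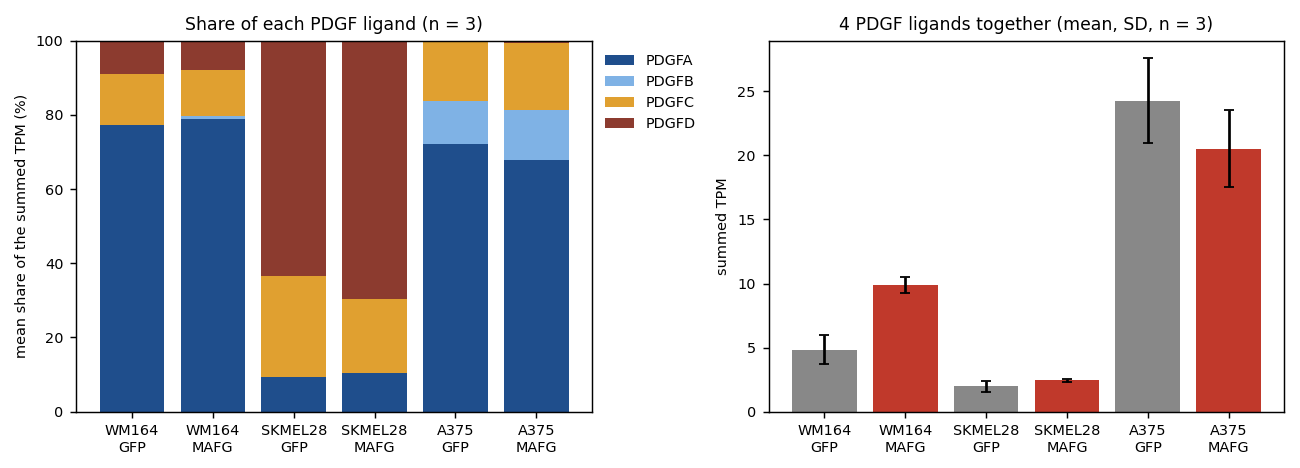
Left, mean share of PDGFA, PDGFB, PDGFC and PDGFD in the summed TPM of the 4 genes (vertical axis, percent) in each condition; right, the summed TPM as mean and SD of 3 libraries, GFP in grey and MAFG in red. PDGFD makes up 63.5% in SKMEL28 GFP and 0.287% in A375 GFP cells.

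The response to MAFG was then compared between lines as a contrast in the 18-library model. Between WM164 and SKMEL28, 3 of 9 members differed at an adjusted p up to 0.05, where 13.7% of all genes did. PDGFRA differed by 4.99 (SE 0.83, adjusted p = 2.69e-04) on the log2 scale, PDGFRB by 7.14 (SE 1.5, adjusted p = 0.00311) and VEGFC by -3.03 (SE 0.62, adjusted p = 0.00214). The receptors rose in WM164 and not in SKMEL28, where MAFG libraries held 0 to 4 counts of PDGFRA and 0 of PDGFRB, so that these fitted sizes depend on the prior count. Between WM164 and A375, 4 of 9 members differed, against 9.21% of all genes. PDGFRB differed by 3.13 (SE 0.48, adjusted p = 1.88e-04), PDGFA by 0.93 (SE 0.22, adjusted p = 0.00757), PDGFB by 3.70 (SE 0.84, adjusted p = 0.00893) and VEGFC by -3.93 (SE 0.56, adjusted p = 6.41e-05). VEGFC fell in WM164, while its A375 libraries with MAFG lay above those with GFP. Between SKMEL28 and A375, 1 of 9 members differed, PDGFRA (-4.45, SE 0.98, adjusted p = 0.00528), against 9.51% of all genes. That difference did not pass with the read-through counts added (adjusted p = 0.243), and PDGFRA then differed between WM164 and A375 by 2.96 (adjusted p = 0.00387). On log2(TPM + 1) with limma, VEGFC (-0.14, adjusted p = 0.701) and PDGFRB (0.44, adjusted p = 0.164) did not pass between WM164 and SKMEL28, nor did PDGFB (0.08, adjusted p = 0.826) and VEGFC (-0.64, adjusted p = 0.0643) between WM164 and A375. PDGFRA did not pass between SKMEL28 and A375 on that scale either (-0.46, adjusted p = 0.280), and PDGFA was lost between WM164 and A375 with a pseudocount of 0.1 (adjusted p = 0.149). The 3 contrasts share libraries and are not independent of each other.

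The receptors and co-receptors of VEGF were counted beside its ligands, from a list of known genes. In WM164, 4 of 5 could be tested, of which 3 rose by over 2-fold and 1 fell by less, where 6.94% of all tested genes passed with over 2-fold. NRP1, a co-receptor for VEGFA, went from 124, 134 and 125 to 1401, 1348 and 1653 counts, a log2 fold change of 3.44 (SE 0.09, adjusted p = 7.92e-15). FLT1, a receptor of VEGFA, went from 2, 5 and 1 to 27, 30 and 21 counts, a log2 fold change of 3.18 (SE 0.62, adjusted p = 7.00e-04). KDR, the main signalling receptor of VEGFA, went from 0, 0 and 6 to 13, 19 and 29 counts, a log2 fold change of 3.15 (SE 0.85, adjusted p = 0.00820). None of these groups overlapped, the GFP counts of KDR all came from replicate 3, and FLT1 and KDR remained near 1 CPM with MAFG. NRP2, a co-receptor for VEGFC, fell with a log2 fold change of -0.63 (SE 0.06, adjusted p = 2.17e-07). FLT4, the main receptor of VEGFC, had at most 5 counts in any library of the 6 conditions. In SKMEL28, FLT1 and NRP1 rose and NRP2 fell, by log2 fold changes of 0.75, 0.62 and -0.18. NRP1 did not pass on either TPM scale (adjusted p = 0.416 and 0.425). FLT1 did not pass under several alternatives, among them the 18-library model (adjusted p = 0.364). In A375, FLT1 had 17, 4 and 0 counts with GFP and 84, 73 and 71 with MAFG, and KDR 9, 1 and 0 and 25, 32 and 66. The A375 groups overlapped for neither gene, and log2 fold changes of 3.33 (SE 0.83, adjusted p = 0.161) and 3.46 (SE 0.99, adjusted p = 0.282) did not pass in edgeR. Both passed with DESeq2 (adjusted p = 4.46e-04 and 0.0130). NRP1 had 1001, 874 and 776 counts with GFP and 1256, 1274 and 1422 with MAFG in A375, groups that did not overlap. It did not pass in the 6-library fit by edgeR or DESeq2. It passed in the 18-library edgeR model (0.46, adjusted p = 0.0125) and without A375 MAFG replicate 1 (0.51, adjusted p = 0.0267). The response of NRP1 was larger in WM164 than in SKMEL28 by 2.83 (SE 0.16, adjusted p = 1.79e-10) and than in A375 by 2.98 (SE 0.16, adjusted p = 3.73e-11) on the log2 scale.

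**Figure D4:**
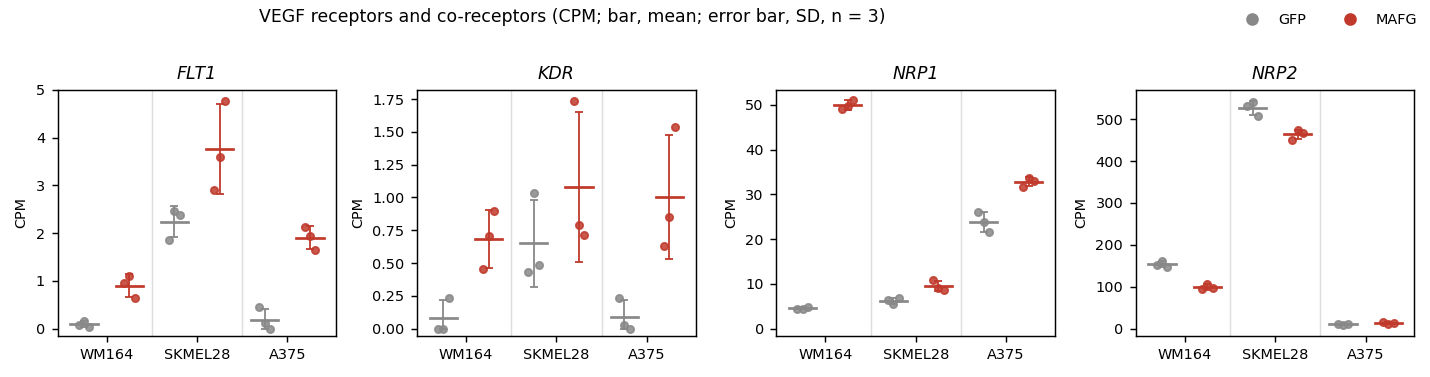
CPM of the VEGF receptors FLT1 and KDR and the co-receptors NRP1 and NRP2 (vertical axis, linear, a scale of its own per gene) in the 3 libraries of each condition, GFP in grey and MAFG in red, with mean and SD. NRP1 rises from 4.6 to 49.98 CPM in WM164 cells, and FLT1 and KDR lie at or below 4.77 CPM in all libraries.

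Other genes of these pathways were counted from lists of known genes. For comparison, 16.2% of all tested genes rose and 15.6% fell in WM164, 14.6% and 15.3% in SKMEL28, and 0.78% and 0.0634% in A375. Of 10 proteins that cut or bind the ligands, 4 rose and 0 fell of 7 tested in WM164, 2 rose and 4 fell of 8 tested in SKMEL28 and 1 rose and 0 fell of 8 tested in A375. PCSK5, a proprotein convertase, went from 1, 1 and 3 to 269, 232 and 275 counts in WM164, a log2 fold change of 7.10 (SE 0.32, adjusted p = 1.07e-11). PLAT, tissue plasminogen activator, which cleaves PDGF-C into its active form, rose in WM164 from 163 ± 6.32 to 463 ± 22.9 CPM, with a log2 fold change of 1.51 (SE 0.06, adjusted p = 7.15e-13). It also passed in SKMEL28 (0.55, SE 0.05, adjusted p = 1.69e-06) and A375 (0.66, SE 0.11, adjusted p = 0.0224). In A375 it did not pass when any 1 of 4 libraries was left out (adjusted p = 0.136 to 0.150), with the replicate number as a block (adjusted p = 0.142) or on log2(TPM + 1) (adjusted p = 0.969). In SKMEL28, the convertase PCSK6 fell from 172, 105 and 106 to 8, 2 and 0 counts (-5.31, SE 0.50, adjusted p = 1.06e-06), and CCBE1, which takes part in VEGF-C processing, from 22, 15 and 17 to 5, 7 and 1 (-2.13, SE 0.65, adjusted p = 0.0214). The CCBE1 call was lost with any of 5 of the 6 libraries left out, at adjusted p from 0.0511 to 0.0929. THBS1, an extracellular matrix protein that binds growth factors, rose in SKMEL28 from 23, 18 and 32 to 161, 103 and 151 counts (2.41, SE 0.27, adjusted p = 6.40e-06). Its TPM was 0.29, 0.12 and 0.79 with GFP and 0.98, 0.35 and 0.52 with MAFG, which overlap, and on log2(TPM + 1) without a filter it did not pass (0.22, adjusted p = 0.659).

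Of the 3 other VEGF family ligands, 0 rose and 1 fell of 2 tested in WM164, the one that fell being VEGFB (-0.36, SE 0.09, adjusted p = 0.00328). VEGFD rose in SKMEL28 from 17, 10 and 15 to 44, 30 and 29 counts (1.20, SE 0.43, adjusted p = 0.0440), and the call was lost with any 1 of the 6 libraries left out and with the replicate number as a block (adjusted p = 0.0696). Of 6 other receptors of the class and their ligands, 1 rose and 0 fell of 3 tested in WM164. That gene was CSF1, from 144, 113 and 93 to 236, 274 and 299 counts (1.13, SE 0.16, adjusted p = 2.44e-05), while its receptor CSF1R had at most 17 counts in any library. Beside the following counts, 31.8% of all tested genes passed in either direction in WM164 and 29.9% in SKMEL28. Of 15 receptor signalling proteins, 5 rose and 2 fell of 15 tested in WM164 and 2 rose and 6 fell of 15 tested in SKMEL28. SRC, a kinase recruited by PDGF receptors, rose in WM164 from 5, 5 and 8 to 37, 26 and 48 counts (2.5, SE 0.49, adjusted p = 7.27e-04) and fell in SKMEL28 (-0.95, SE 0.09, adjusted p = 6.80e-07). Its WM164 TPM was 0.26, 0.03 and 0.04 with GFP and 0.39, 0.14 and 0.5 with MAFG, which overlap. With limma on log2(TPM + 1) without a filter, SRC did not pass in WM164 (0.27, adjusted p = 0.356) or SKMEL28 (-0.71, adjusted p = 0.0855). Of 7 attenuators of receptor signalling, 2 rose and 3 fell of 7 tested in WM164 and 1 rose and 3 fell of 7 tested in SKMEL28. LRIG1, which lowers the amount of several receptor tyrosine kinases, fell in both lines, with log2 fold changes of -1.62 (SE 0.09, adjusted p = 1.68e-10) and -1.26 (SE 0.12, adjusted p = 1.64e-06). Of 5 transcription factors known to act on KIT or VEGFA, 0 rose and 3 fell of 5 tested in WM164 and 0 rose and 3 fell of 5 tested in SKMEL28. Of 12 hypoxia-induced genes, which often move with VEGFA, 5 rose and 1 fell of 11 tested in WM164 and 3 rose and 3 fell of 11 tested in SKMEL28. In A375 cells 0 genes of these 6 lists passed in edgeR, 4 had an unadjusted p under 0.05, and 1, the hypoxia-induced CA9, passed with DESeq2.

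The genes whose level most resembled that of each receptor over the 18 libraries were found by Pearson correlation of log2 CPM among 18767 genes, as a description in which the libraries share their lines. For PDGFRA these were CKB (r = 0.97), MAML2 (r = 0.96), CIRBP (r = 0.96), all highest in WM164 cells. CKB was at 52.8 CPM in WM164 GFP, 86.5 in WM164 MAFG and 10.8 in SKMEL28 GFP cells. For PDGFRB they were ADAMTSL4 (r = 0.99), COL8A1 (r = 0.99), MDK (r = 0.98), all highest in A375 cells and higher in WM164 cells with MAFG. MDK, the growth factor midkine, was at 3.52 CPM in WM164 GFP, 31.0 in WM164 MAFG and 181 in A375 GFP cells. KIT had too few counts for such a measure.

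PDGFRA, KIT and KDR lie next to each other on chromosome 4, and their neighbours were looked at after the values of the receptors had been seen. KIT begins 359 kb after the end of PDGFRA, and KDR lies 338 kb beyond the end of KIT. In WM164 cells PDGFRA and KDR rose while KIT between them had 4 counts over the GFP libraries and 0 over the MAFG libraries. Of 8 other protein-coding genes within 500 kb, 4 could be tested in WM164, and their log2 fold changes were from 0.04 to 0.20. Of these, TMEM165 passed (0.20, SE 0.08, adjusted p = 0.0494), and CHIC2, SRD5A3 and CLOCK did not. PDGFRB lies 466 bases from CSF1R on chromosome 5, and CSF1R had 3 counts over the WM164 GFP and 1 over the WM164 MAFG libraries. Within 500 kb of this pair, SLC26A2 (log2 fold change 1.12, adjusted p = 1.04e-10), CD74 (1.36, adjusted p = 2.85e-04) and SYNPO (1.44, adjusted p = 2.84e-06) rose in WM164. ARSI (-1.56, adjusted p = 0.0123) and TIGD6 (-0.33, adjusted p = 0.0409) fell. ARHGEF37, PPARGC1B, PDE6A, HMGXB3, CAMK2A, TCOF1, RPS14 and NDST1 did not pass. The part of the locus in the rise of PDGFRB was not tested.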

How the data were processed

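RNA-seq was performed on 18 libraries, 3 for each of MAFG and GFP in WM164, SKMEL28 and A375 cells. The authors deposited raw counts per gene and, separately, TPM values rounded to 2 decimals. The submitters' processing notes name cutadapt 1.8.1, STAR 2.7.7a, RSEM 1.3.0, DESeq2 and GRCh38, and the methods name featureCounts on uniquely aligned reads. The labels describe a non-stranded kit and the methods a strand-specific kit, and use of strand in counting is not given in the sources used here. Exons of PDGFD, KITLG and VEGFA overlap genes on the opposite strand.

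Here, counts were tested with edgeR 4.0.16 (quasi-likelihood F test, TMM, filterByExpr, R 4.3.3) and p-values were adjusted by Benjamini-Hochberg over all tested genes. MAFG and GFP were compared in the 6 libraries of a line, and levels and differences between responses in 1 model of 18 libraries. Calls required an adjusted p of 0.05 or less and, except for differences, over 2-fold. DESeq2 1.42.0, limma 3.58.1 on log2 TPM with a pseudocount of 1 or 0.1, other filters and single libraries left out were alternatives. The fits were tested on simulated data. Standard errors are the fold change over the square root of F. Counting intervals are exact, at 95%, and cover counting error only.

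The members and lists were chosen with earlier results of these data known. All 10 members were named, with up to 3 genes per pathway list and line of largest change among those called, and the 3 genes most alike each receptor; other list genes were named after their values were seen. Replicates differed by more than sampling noise (chi-square per gene 5.90 to 96.7, where 1 is expected from sampling alone). The largest values were those of A375 MAFG replicate 1 against replicates 2 and 3 of that condition, 68.7 and 96.7. Replicates 2 and 3 gave 15.8 against each other.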

Additional observations from a re-analysis of the deposited data

Results flagged for a closer look

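The responses to MAFG of 8 gene and line pairs differed between lines by the interaction contrast of the 18-library edgeR model, adjusted by Benjamini-Hochberg over all genes. Each value is a difference of log2 fold changes, the first line minus the second. Between WM164 and SKMEL28, the response of PDGFRA differed by 4.99, that of PDGFRB by 7.14 and that of VEGFC by -3.03. Between WM164 and A375, the response of PDGFRB differed by 3.13, that of PDGFA by 0.93, that of PDGFB by 3.70 and that of VEGFC by -3.93. Between SKMEL28 and A375, the response of PDGFRA differed by -4.45. Where a condition held few counts, as PDGFRA and PDGFRB did in SKMEL28 MAFG libraries and PDGFB in WM164 GFP libraries, the size depends on the prior count that edgeR adds.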

How the results depend on the processing

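The number of members called between MAFG and GFP in WM164, 2 as reported, was 4 without a count filter, 4 in the 18-library model, 4 with no limit on the fold change, 1 with at least 10 counts in every library, 0 with limma on log2(TPM + 1) with or without a filter, and 3 to 4 with 1 library left out, when PDGFB or VEGFC or both passed the count filter. In SKMEL28, 0 as reported, it was 1 without a filter, 1 in the 18-library model, 2 with no limit on the fold change and 0 to 1 with 1 library left out, the gene being PDGFRA without GFP replicate 2. With at least 10 counts in every library, which fewer genes pass, the level comparisons called 1 (A375 and WM164), 2 (A375 and SKMEL28) and 1 (WM164 and SKMEL28) and the response differences 0 each. Between WM164 and SKMEL28 levels, 4 as reported, 1 was called with log2(TPM + 1) with or without a filter, 7 with no limit on the fold change and 3 to 5 with 1 library left out, and between A375 and SKMEL28 levels 7 to 8. Response differences between WM164 and SKMEL28 numbered 1 with log2(TPM + 1) without a filter, and those between WM164 and A375 numbered 2 on each of the 3 TPM scales. Those between SKMEL28 and A375, 1 as reported, numbered 2 with DESeq2, 2 without a filter, 0 on the 3 TPM scales, 0 with read-through counts added and 1 to 2 with 1 library left out. Where no construction is named, the cause was not tested.

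Some signs turned. VEGFA in WM164 was 0.0043 on the log2(TPM + 1) scale with or without a filter and 0.0045 with a pseudocount of 0.1, PDGFC in A375 was -0.0406 and -0.0444, VEGFA in A375 -0.0579 and -0.0613, and the VEGFA level of WM164 against SKMEL28 -0.4055 and -0.4267, which passed in limma (adjusted p = 0.0233 and 0.0305). The log2(TPM + 1) scale moved the median of all genes by 0.14 in WM164, -0.14 in SKMEL28 and -0.10 in A375, and by -0.42 between WM164 and SKMEL28 GFP cells. With 1 library left out, PDGFC in SKMEL28 ranged from -0.4725 to 0.0594, KITLG in A375 from -0.3882 to 0.1577 and VEGFA in A375 from -0.0173 to 0.1734. The PDGFRA level of A375 against SKMEL28 was 0.659 with read-through counts added. For the members, 288 of 317 response values under alternatives kept direction and side of the threshold, 364 of 397 level values and 145 of 160 differences.

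Same-numbered replicates did not pair: their deviations correlated by -0.246 to 0.120, over 0.1 in 1 of 9 pairs. With the replicate number as a block, 2, 0 and 0 members were called in WM164, SKMEL28 and A375, 7, 8 and 4 in the level comparisons and 3, 4 and 1 in the differences, each count as reported, while PLAT in A375 (0.65, adjusted p = 0.142) and VEGFD in SKMEL28 (1.19, adjusted p = 0.0696) no longer passed in edgeR.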
